A study of Mus musculus with 18 samples.

Results

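The transcripts of CD8 T cells were set against those of CD4 T cells, both sorted from the bone marrow of pMT-10 mice whose IL-10 transgene had been switched on with zinc. The comparison takes the 3 CD8 and the 3 CD4 libraries whose titles name zinc-fed pMT-10 mice on chip A, 6 of the 18 libraries of the series. pMT-10 mice carry IL-10 under a metallothionein promoter, which zinc in the drinking water induces and which is not specific to T cells. The other 12 libraries are CD8 and CD4 cells of C57BL/6 mice on the same zinc water and of pMT-10 mice on control water, 3 of each, and they are used here to show where the zinc-fed pMT-10 mice differ. All mice drank their water for 30 days, and the labels give no age. The pMT-10 and C57BL/6 libraries with zinc shared chip A and differed in strain and also in sex, since pMT-10 libraries held Xist reads and C57BL/6 libraries held reads of Y-linked genes. The pMT-10 libraries without zinc were on chip B, so zinc and chip cannot be told apart between mice, although the CD8 and CD4 libraries of each kind of mouse always shared a chip.

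CD8 T cells read antigen on class I molecules and typically become killers that release perforin and granzymes and secrete interferon-gamma. CD4 T cells read antigen on class II molecules and become helper cells, which secrete cytokines, or regulatory cells, which carry the transcription factor Foxp3. Bone marrow holds both naive and memory T cells of each lineage, close to the progenitors of blood cells. IL-10 signals through its receptor to STAT3 and is best known for restraining immune responses, yet in CD8 T cells it can also promote effector and memory properties.

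RNA was read with a targeted panel of 23930 mouse genes, 1 amplicon for each, and total counts of the 6 libraries ran from 10546798 to 16386245. Levels are given as CPM, counts scaled to a common library size with TMM factors, and replicate libraries as replicate 1, 2 and 3 of each cell type. Differences are log2 fold changes of CD8 over CD4 with their standard errors, fitted in edgeR over all 18 libraries, so a negative value means lower in CD8 cells. Genes were called where the p adjusted by Benjamini and Hochberg over all 11316 genes tested was under 0.05, and every adjusted p below comes from this edgeR quasi-likelihood test unless another is named. The design text speaks of 3 mice of each kind, so CD8 and CD4 libraries probably came from the same animals, but no label links them and the p-values measure the spread between libraries only.

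The promoters of 3 effector genes that the results return to are shown first, each 300 bases long, from RefSeq on GRCm38.p6. Eomes encodes a T-box factor of cytotoxic and memory CD8 cells, Nkg7 a membrane protein of cytotoxic granules, and Gzmb the protease granzyme B. Capitals mark TGTGGT, the core of the RUNX motif, or AGGTGTGA, a T-box site, searched on both strands (the reverse of the RUNX core reads ACCACA). Eomes lies on the plus strand at chr9:118477939-118478238, Nkg7 on the plus strand at chr7:43436888-43437187 and Gzmb on the minus strand at chr14:56262285-56262584.
Eomes: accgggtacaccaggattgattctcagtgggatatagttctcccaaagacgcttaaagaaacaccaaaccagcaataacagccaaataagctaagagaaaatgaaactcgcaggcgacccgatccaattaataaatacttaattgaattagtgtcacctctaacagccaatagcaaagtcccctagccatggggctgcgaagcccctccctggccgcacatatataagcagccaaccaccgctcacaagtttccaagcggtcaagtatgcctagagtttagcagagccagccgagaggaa
Nkg7: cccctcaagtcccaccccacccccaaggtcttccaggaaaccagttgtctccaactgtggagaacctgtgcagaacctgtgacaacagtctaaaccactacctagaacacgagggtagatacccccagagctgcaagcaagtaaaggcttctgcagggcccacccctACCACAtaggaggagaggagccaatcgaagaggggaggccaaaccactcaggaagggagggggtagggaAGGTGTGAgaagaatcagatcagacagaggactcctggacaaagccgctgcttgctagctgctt
Gzmb: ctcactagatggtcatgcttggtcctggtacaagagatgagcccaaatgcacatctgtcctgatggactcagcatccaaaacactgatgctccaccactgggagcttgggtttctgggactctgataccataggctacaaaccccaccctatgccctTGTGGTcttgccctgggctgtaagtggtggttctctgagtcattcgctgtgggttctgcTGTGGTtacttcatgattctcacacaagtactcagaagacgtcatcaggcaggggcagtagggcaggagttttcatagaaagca
The Nkg7 window held 1 RUNX core, on the reverse strand, and 1 T-box site, the Gzmb window held 2 RUNX cores, and the Eomes window held neither motif. The windows cover 250 bases before and 50 after each start. Over all genes, the RUNX core stood in 12.6% of 1444 promoters of genes higher in CD8 cells, 13.7% of 1678 promoters of genes lower in CD8 cells, 13% of 7877 promoters of genes tested and not called, and 16.8% of all 32851 promoters in the table. The T-box site stood in 1.11% of the promoters of genes higher in CD8 cells, 1.13% of those lower in CD8 cells, 0.876% of those tested and not called and 1.28% of all. These shares describe letters in a window and say nothing of binding.

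The coreceptors that the sort used checked the labels. Cd4 stood at 1.79, 0.282 and 0 CPM in the CD8 libraries and at 3160, 3190 and 3410 CPM in the CD4 libraries. Cd8a stood at 2570, 2020 and 2530 CPM in the CD8 libraries and at 2.35, 1.33 and 0.3 CPM in the CD4 libraries. Cd8b1 stood at 1870, 1490 and 1750 CPM in the CD8 libraries and at 18.7, 22.1 and 20.4 CPM in the CD4 libraries. All 6 libraries therefore carried the coreceptor of their label, and these values are a check and not a result.

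Some libraries stood apart from their group. In a principal component analysis of the 6 libraries, the first component (62.35% of the variance) separated the cell types, and the second (11.5%) set CD8 replicate 2, at -47.1, apart from CD8 replicates 1 and 3, at 28.4 and 29.3. CD8 replicate 2 held less of Gzmb, Ifng, Csf1 and Pdcd1 than the other CD8 libraries. CD4 replicate 2 held more Ccr7, Foxp3 and Il2ra, and CD4 replicate 3 held platelet transcripts, with Pf4 at 71.0 CPM against 0.354 CPM at most in the other 5 libraries. Log2 CPM correlated across genes at r of 0.9575 to 0.9643 among CD8 libraries, 0.9643 to 0.974 among CD4 libraries and 0.883 to 0.9193 between the cell types, although genes are not independent replicates. Without CD8 replicate 2 the ratio of CD4 to CD8 means was 4.47 in place of 6.14 for Csf1 and 2.5 in place of 3.15 for Pdcd1. Without CD4 replicate 2 that ratio was 125 in place of 151 for Foxp3. Other values without these libraries are given beside some of the results they touch.

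CD8 and CD4 cells differed in 3178 genes, 28.1% of those tested, of which 1512 (13.4%) were higher and 1666 (14.7%) lower in CD8 cells. Counts of list members given below for this comparison are to be read beside these shares. With the further condition of a 2-fold change, 1595 genes (14.1%) were called, 766 (6.77%) higher and 829 (7.33%) lower. All 3 CD8 libraries lay above all 3 CD4 libraries in 2260 genes (20.0%) and below them in 2659 genes (23.5%). The number of calls was 2238 without CD8 replicate 2, the lowest value, and 3008 without CD8 replicate 3, the highest value on leaving out 1 library. Without scaling beyond library size, the split of 3199 calls turned to 1845 higher and 1354 lower in CD8 cells. Because the samples are bulk RNA, fewer cells of a type and less RNA per cell cannot be told apart in any of the values that follow.

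**Figure D1:**
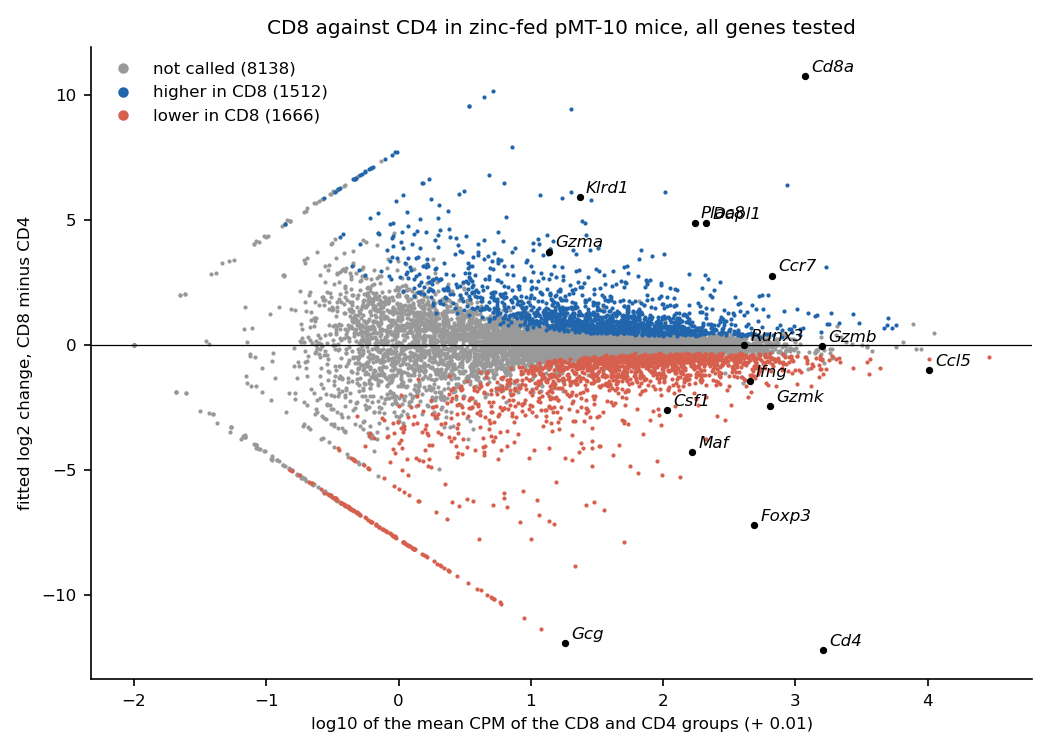
Fitted log2 fold change of CD8 over CD4 (y axis) against the log10 of the mean CPM of both groups (x axis), 1 point for each of the 11316 genes tested in zinc-fed pMT-10 mice. The 1512 genes higher in CD8 cells are blue, the 1666 lower are red and the others grey, and Gzmb and Runx3 lie near 0 among the abundant genes.

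The central genes of killing, Gzmb and Prf1, overlapped between the cell types. Gzmb stood at 1750, 913 and 2000 CPM in the CD8 libraries and at 1810, 1320 and 1660 CPM in the CD4 libraries. Prf1, which encodes perforin, stood at 116, 45.6 and 138 CPM in the CD8 libraries and at 117, 69.5 and 99.7 CPM in the CD4 libraries. Neither difference was called (Gzmb log2 -0.04 ± 0.43, adjusted p = 0.963; Prf1 0.06 ± 0.31, adjusted p = 0.902). Nkg7 stood at 1320, 1150 and 1310 CPM in the CD8 libraries and at 2310, 1420 and 2440 CPM in the CD4 libraries, so every CD4 library was above every CD8 library. The difference of -0.71 ± 0.32 was not called (adjusted p = 0.109), although it was when only these 6 libraries were fitted (0.016) or CD4 replicate 2 was left out (0.0475).

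Other granzymes took opposite sides. Gzmk, a granzyme of early effector and memory cells, stood at 207, 101 and 296 CPM in the CD8 libraries and at 1260, 679 and 1330 CPM in the CD4 libraries, and was lower in CD8 cells (log2 -2.44 ± 0.61, adjusted p = 0.00853). Gzma stood at 44.9, 12.4 and 19.5 CPM in the CD8 libraries and at 2.22, 0.0886 and 3.37 CPM in the CD4 libraries. Gzmm, another granzyme, stood at 16, 11 and 22.9 CPM in the CD8 libraries and at 1.57, 1.59 and 1.87 CPM in the CD4 libraries. Both were higher in CD8 cells, Gzma by 3.73 ± 0.77 (adjusted p = 0.00115) and Gzmm by 3.30 ± 0.35 (adjusted p = 5.9e-07). The ratio of means of Gzma, 13.5, was 8.42 without CD8 replicate 1 and 22.2 without CD4 replicate 3. Granzyme genes resemble each other in sequence, and how reads shared between copies were counted is not given in the sources used here.

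Of the 21 granule genes tested, 4 were higher in CD8 cells (Gzma, Gzmm, Plac8 and Ctsw) and 10 lower, with a median log2 difference of -0.51 against -0.009 over all genes tested. The count of lower genes ranged from 6 without CD8 replicate 2 to 11 without CD4 replicate 2. Plac8, a small lysosomal protein of effector lymphocytes, stood at 250, 445 and 310 CPM in the CD8 libraries and at 11, 11.6 and 11.3 CPM in the CD4 libraries (log2 4.89 ± 0.29, adjusted p = 2.3e-10). Sytl3, a synaptotagmin-like protein that binds Rab27 on granules, stood at 87.9, 75.2 and 131 CPM in the CD8 libraries and at 207, 130 and 199 CPM in the CD4 libraries (-0.87 ± 0.22, adjusted p = 0.00473). Stx11, a syntaxin needed for granule release, averaged 1.54 ± 0.878 CPM in CD8 cells and 8.47 ± 1.41 CPM in CD4 cells (SD, n = 3 each) and was lower in CD8 cells (adjusted p = 0.00174). Summed over the list, levels ran from 5520 to 7020 CPM in the CD8 libraries and from 7150 to 9540 CPM in the CD4 libraries, so the sums did not overlap. Such a sum follows the abundant genes, and Gzmb and Nkg7 weigh far more in it than Stx11. Of these 2, Gzmb means were close, at 1560 CPM in CD8 and 1600 CPM in CD4 cells. Nkg7 means lay further apart, at 1260 and 2050 CPM.

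Interferon-gamma and the growth factor Csf1 were lower in CD8 cells. Ifng, which encodes interferon-gamma, stood at 214, 155 and 351 CPM in the CD8 libraries and at 703, 467 and 816 CPM in the CD4 libraries, without overlap (log2 -1.46 ± 0.42, adjusted p = 0.0156). The call was lost without CD8 replicate 1 (0.0628), CD8 replicate 2 (0.0833) or CD4 replicate 3 (0.0545), while the difference itself stayed between -1.84 and -1.21. Csf1, the growth factor of monocytes and macrophages, stood at 34.1, 7.62 and 48.5 CPM in the CD8 libraries and at 176, 127 and 251 CPM in the CD4 libraries (-2.61 ± 0.49, adjusted p = 0.00094). Il10 reads stood at 22.4, 3.2 and 12.9 CPM in the CD8 libraries and at 26.0, 16.6 and 20.9 CPM in the CD4 libraries, with overlap and no call (-0.72 ± 0.54, adjusted p = 0.344), and its ratio of CD4 to CD8 means, 1.65, was 2.63 without CD8 replicate 1. Whether the Il10 amplicon also reads the transgene is not given in the sources used here. Tnf was low, at 1.18 ± 0.147 CPM in CD8 cells and 3.96 ± 0.524 CPM in CD4 cells. Its call (adjusted p = 0.0279) was lost on leaving out any library but CD4 replicate 1.

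Some cytokines were read in CD4 cells alone. Areg, the epidermal growth factor receptor ligand amphiregulin, had no count in any CD8 library and stood at 9.33, 20.2 and 6.22 CPM in the CD4 libraries. Il21, a helper cytokine for B cells, likewise had no count in CD8 libraries and stood at 4.24, 5.14 and 4.80 CPM in CD4 libraries. Set against the 3 counts over the CD8 group that a count of 0 allows, CD8 cells were at least 136-fold lower in Areg and at least 56.2-fold lower in Il21. Tnfsf11, the osteoclast factor RANKL, stood at 0, 0.565 and 0 CPM in the CD8 libraries and at 7.77, 16.2 and 13 CPM in the CD4 libraries (log2 -6.11 ± 0.71, adjusted p = 2.51e-06), and without CD8 replicate 2 its CD8 level was 0. Of 15 cytokine and growth factor genes tested, none was higher and 6 were lower in CD8 cells, a count of 4 to 6 on leaving out any 1 library, with 1 gene called higher without CD4 replicate 2. Among 11 factors that act on blood formation, which share Csf1, Ifng and others with that list, none was higher and 6 were lower. Csf2, which encodes GM-CSF, had no count in CD8 libraries and 0.202 ± 0.233 CPM in CD4 libraries.

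Of the chemokines Ccl3, Ccl4 and Ccl5, Ccl4 alone was called. Ccl5 was the most abundant of them, at 6610, 5120 and 8350 CPM in the CD8 libraries and 14600, 8770 and 17300 CPM in the CD4 libraries (log2 -1.02 ± 0.39, adjusted p = 0.0655). Ccl3 stood at 241, 135 and 310 CPM in the CD8 libraries and at 523, 550 and 579 CPM in the CD4 libraries (-1.27 ± 0.61, adjusted p = 0.14). Ccl4 stood at 25.6, 15.5 and 25.5 CPM in the CD8 libraries and at 57.7, 54.3 and 48.1 CPM in the CD4 libraries, and its call (-1.26 ± 0.44, adjusted p = 0.0382) was lost on leaving out any 1 of the 6 libraries (0.0605 to 0.157). For all 3 genes every CD8 library lay below every CD4 library. Fitted on these 6 libraries alone, Ccl5 and Ccl3 were called too (adjusted p = 0.0191 and 0.00536).

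**Figure D2:**
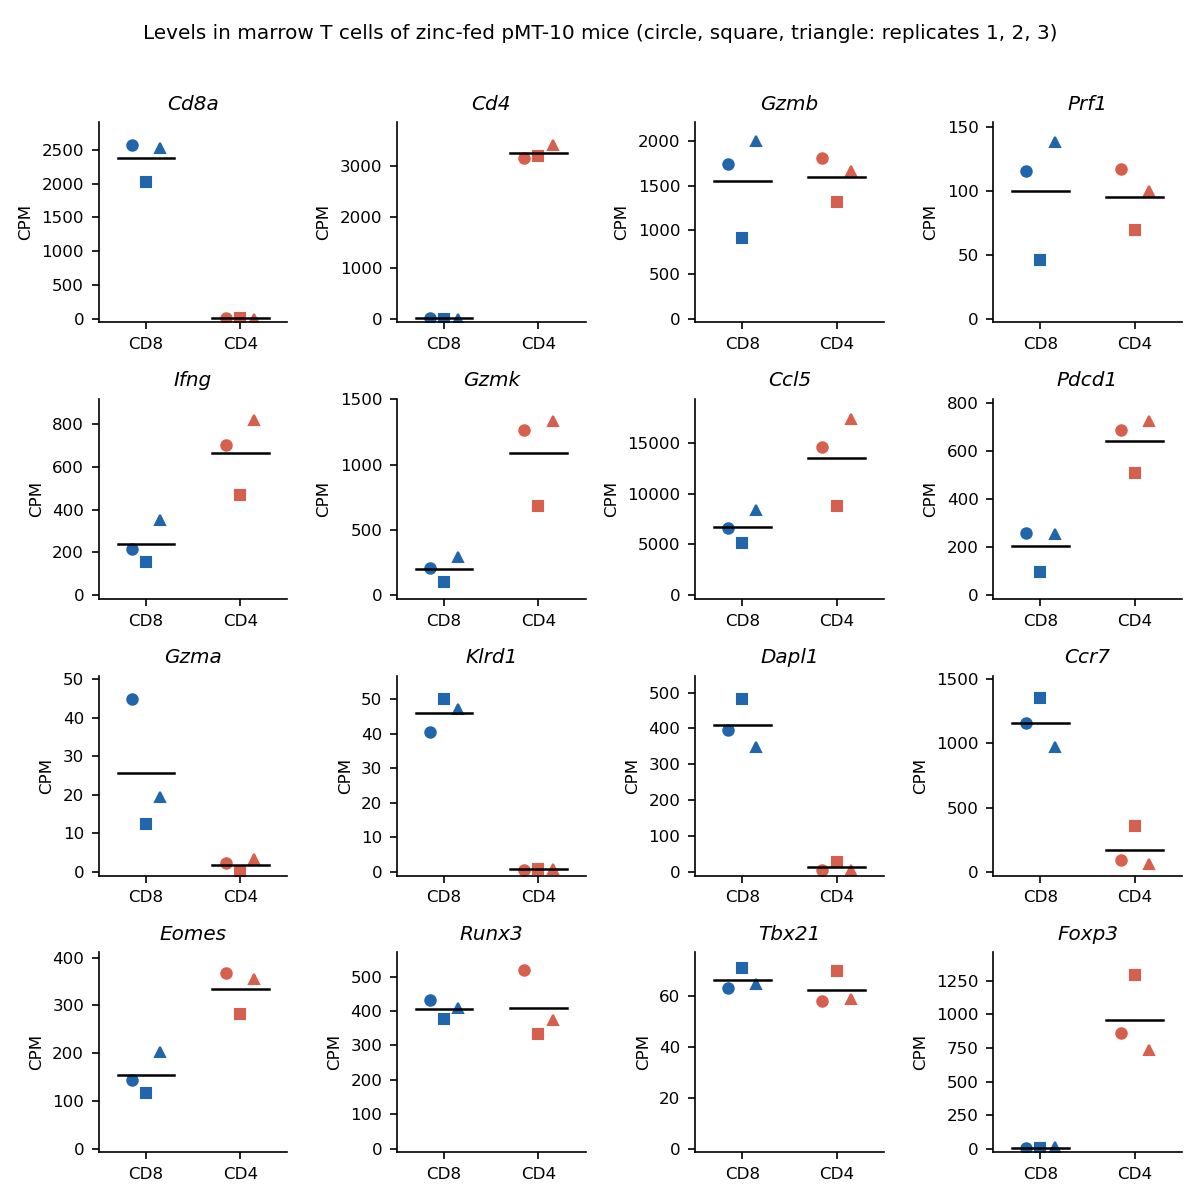
Level of 16 genes in CPM (y axis, linear, a scale for each gene) in the 3 CD8 and 3 CD4 libraries of zinc-fed pMT-10 mice, 1 symbol a library (circle, square and triangle for replicates 1, 2 and 3) with the mean as a line. Gzmb, Prf1, Runx3 and Tbx21 overlap between the cell types, Gzmk, Ifng, Pdcd1 and Eomes are lower in every CD8 library, and Gzma, Klrd1, Dapl1 and Ccr7 are higher in every CD8 library.

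Receptors that restrain T cells were mostly lower in CD8 cells. Pdcd1, which encodes PD-1, stood at 258, 98.3 and 255 CPM in the CD8 libraries and at 689, 509 and 725 CPM in the CD4 libraries (log2 -1.65 ± 0.42, adjusted p = 0.00813). Tigit stood at 39.8, 20.6 and 54.7 CPM in the CD8 libraries and at 168, 139 and 154 CPM in the CD4 libraries (-2.00 ± 0.29, adjusted p = 2.96e-05). Ctla4, the receptor that competes with CD28 for its ligands, stood at 15.2, 6.31 and 11.1 CPM in the CD8 libraries and at 102, 83.0 and 85.7 CPM in the CD4 libraries (-3.05 ± 0.29, adjusted p = 1.82e-07). In each of the 3 genes the groups did not overlap and CD8 replicate 2 was the lowest library. Of the 21 coinhibitory and exhaustion genes tested, 2 were higher in CD8 cells (Cd244 and Nt5e) and 13 lower, with a median of -1.39, and 11 to 13 were lower without any 1 library. Lag3 stood at 237, 107 and 279 CPM in the CD8 libraries and at 703, 318 and 783 CPM in the CD4 libraries, and was not called (adjusted p = 0.0613) although it was without CD4 replicate 2 (0.0392) or in a fit of these 6 libraries alone (0.0428). Havcr2, which encodes TIM-3, stood at 11.3, 1.51 and 16.2 CPM in the CD8 libraries and at 26.6, 11.2 and 26.2 CPM in the CD4 libraries, with overlap and no call.

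Transcription factors of effector and exhausted cells lay on both sides, with more of them lower in CD8 cells. Maf, which drives Il10 and helper cytokine genes, stood at 16, 10.1 and 22.6 CPM in the CD8 libraries and at 305, 315 and 331 CPM in the CD4 libraries (log2 -4.28 ± 0.25, adjusted p = 1.95e-10). Prdm1, the gene of the terminal differentiation factor Blimp-1, stood at 49.7, 14.2 and 52.3 CPM in the CD8 libraries and at 231, 174 and 223 CPM in the CD4 libraries (-2.43 ± 0.44, adjusted p = 0.000525). Bhlhe40, which limits Il10 and sustains cytokine production, stood at 106, 54.6 and 148 CPM in the CD8 libraries and at 509, 603 and 539 CPM in the CD4 libraries (-2.41 ± 0.38, adjusted p = 0.000172). Each of these was lower in all 3 CD8 libraries than in any CD4 library. Tox, a factor of exhausted T cells, averaged 210 ± 53.6 CPM in CD8 cells and 517 ± 39.4 CPM in CD4 cells (-1.30 ± 0.19, adjusted p = 2.38e-05), and its relative Tox2 was lower by 2.64 ± 0.47 on the log2 scale. The helix-loop-helix inhibitors Id2 and Id3, which favour effector and memory precursor cells, moved apart. Id2 was lower in CD8 cells, at 148, 123 and 199 CPM in the CD8 libraries and 387, 324 and 424 CPM in the CD4 libraries (-1.27 ± 0.18, adjusted p = 1.72e-05). Id3 was higher, at 69.9, 81.2 and 68.9 CPM in the CD8 libraries and 15, 33.0 and 17.5 CPM in the CD4 libraries (1.75 ± 0.24, adjusted p = 1.12e-05). Of the 23 effector and memory factors tested, 6 were higher and 10 lower, with a median of -0.12.

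The factors that set the cytotoxic programme were not higher in CD8 cells. Eomes stood at 144, 117 and 202 CPM in the CD8 libraries and at 368, 281 and 355 CPM in the CD4 libraries, without overlap, and was lower in CD8 cells (log2 -1.12 ± 0.26, adjusted p = 0.00277). Runx3, which silences Cd4 and upholds the CD8 lineage, stood at 432, 378 and 410 CPM in the CD8 libraries and at 519, 333 and 375 CPM in the CD4 libraries (-0.01 ± 0.16, adjusted p = 0.978). Tbx21, the gene of T-bet, stood at 63.1, 70.8 and 64.8 CPM in the CD8 libraries and at 58.2, 69.6 and 58.7 CPM in the CD4 libraries (0.09 ± 0.21, adjusted p = 0.775). Runx3 and Tbx21 overlapped between the cell types, and an uncalled difference does not show that the levels are equal. Zbtb7b, the gene of ThPOK, which fixes the CD4 lineage, stood at 2.30, 2.35 and 5.93 CPM in the CD8 libraries and at 142, 118 and 118 CPM in the CD4 libraries. It was lower in CD8 cells by 5.12 ± 0.35 on the log2 scale (adjusted p = 3.25e-09), and the ratio of CD4 to CD8 means, 35.7, was 54.1 without CD8 replicate 3.

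Genes of naive and resting T cells were higher in CD8 cells. Ccr7, the chemokine receptor that guides naive cells to lymph nodes, stood at 1160, 1350 and 968 CPM in the CD8 libraries and at 97.2, 354 and 62.2 CPM in the CD4 libraries (log2 2.77 ± 0.47, adjusted p = 0.00047). Dapl1, a gene of naive-like CD8 cells, stood at 395, 483 and 348 CPM in the CD8 libraries and at 6.85, 29.0 and 6.44 CPM in the CD4 libraries (4.88 ± 0.44, adjusted p = 5.34e-07). In both genes CD4 replicate 2 was the highest CD4 library and still lay below every CD8 library. Without it the ratio of CD8 to CD4 means was 14.6 in place of 6.79 for Ccr7 and 61.4 in place of 29.0 for Dapl1. Tcf7, the gene of the stem-like memory factor TCF-1, averaged 2040 ± 306 CPM in CD8 cells and 881 ± 379 CPM in CD4 cells (1.21 ± 0.20, adjusted p = 0.000143). Satb1, a chromatin organiser of naive T cells, averaged 849 ± 101 CPM in CD8 cells and 217 ± 44.6 CPM in CD4 cells (1.97 ± 0.15, adjusted p = 7.95e-09), and Bcl2, a survival factor, was higher by 2.60 ± 0.24 on the log2 scale. Of the 19 naive and quiescence genes tested, 13 were higher in CD8 cells and 2, Btg1 and Btg2, lower, with a median of 1.68, and 12 or 13 were higher without any 1 library. The list summed to 11900 to 14400 CPM in the CD8 libraries and to 3900 to 6890 CPM in the CD4 libraries.

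The receptors of the natural killer gene complex were a second group higher in CD8 cells. Klrd1, which encodes the CD94 chain, stood at 40.6, 50.2 and 47.3 CPM in the CD8 libraries and at 0.522, 0.797 and 0.974 CPM in the CD4 libraries (log2 5.91 ± 0.32, adjusted p = 6.35e-11). Klrk1, the activating receptor NKG2D, stood at 13, 27.0 and 40.8 CPM in the CD8 libraries and at 1.89, 3.63 and 3.52 CPM in the CD4 libraries (3.17 ± 0.37, adjusted p = 2.21e-06). Klre1 averaged 25.2 ± 3.28 CPM in CD8 cells and 1.2 ± 0.388 CPM in CD4 cells (4.38 ± 0.39, adjusted p = 5.58e-08). Of the 17 killer lectin-like and NK receptor genes tested, 13 were higher and 2, Klrg1 and Klrb1f, lower, with a median of 3.34, and 11 were higher without any 1 library. The Klra members among them, such as Klra6 and Klra7, are near-identical copies whose reads may be split, so their separate values are uncertain. Klrg1, an inhibitory receptor of late effector cells, went the other way, at 11.7, 3.95 and 5.05 CPM in the CD8 libraries and 157, 187 and 171 CPM in the CD4 libraries (-4.64 ± 0.49, adjusted p = 3.27e-06). The ratio of CD4 to CD8 means of Klrg1, 24.9, was 38.2 without CD8 replicate 1. Ncr1, a defining NK gene, had no count in any of the 6 libraries.

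Genes of regulatory and helper CD4 cells were mostly lower in CD8 cells. Foxp3 stood at 5.03, 3.39 and 10.7 CPM in the CD8 libraries and at 858, 1290 and 735 CPM in the CD4 libraries (log2 -7.21 ± 0.49, adjusted p = 2.63e-08). Il2ra, the high-affinity IL-2 receptor chain that regulatory cells display, stood at 8.45, 8.94 and 2.63 CPM in the CD8 libraries and at 167, 463 and 151 CPM in the CD4 libraries (-5.30 ± 0.54, adjusted p = 3.16e-06). The ratio of CD4 to CD8 means, 151 for Foxp3 and 39.0 for Il2ra, was 229 for Foxp3 without CD8 replicate 3 and 23.8 for Il2ra without CD4 replicate 2. Of the 17 regulatory T cell genes tested, 1, Gpr15, was higher and 15 were lower in CD8 cells, the same counts without any 1 library, and the median was -3.05. Of the 15 genes of helper subsets other than type 1, none was higher and 12 were lower, with a median of -3.55, or -3.18 with genes at 0 set to their bound. Il1rl1, the IL-33 receptor of tissue regulatory and type 2 cells, had no count in CD8 libraries and stood at 8.09, 19.8 and 6.89 CPM in CD4 libraries, at least 132-fold lower in CD8 cells. Cd40lg, by which helper cells license B cells and dendritic cells, averaged 0.665 ± 0.281 CPM in CD8 cells and 30.4 ± 7.68 CPM in CD4 cells (-5.49 ± 0.36, adjusted p = 5.95e-10).

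The costimulatory receptor Tnfrsf9 and the IL-10 receptor chain Il10ra were also lower in CD8 cells, while the other chain, Il10rb, was not called. Tnfrsf9, the inducible receptor 4-1BB, stood at 64.1, 45.6 and 78.3 CPM in the CD8 libraries and at 386, 494 and 466 CPM in the CD4 libraries (log2 -2.84 ± 0.21, adjusted p = 4.85e-09). Of the 19 costimulatory and TNF superfamily genes tested, 3 were higher in CD8 cells (Cd226, Slamf6 and Tnfsf8) and 11 lower, with a median of -1.24. Il10ra, the ligand-binding chain of the IL-10 receptor, stood at 311, 224 and 320 CPM in the CD8 libraries and at 649, 580 and 725 CPM in the CD4 libraries (-1.19 ± 0.20, adjusted p = 0.000146). Stat3, through which that receptor signals, averaged 553 ± 109 CPM in CD8 cells and 827 ± 78.9 CPM in CD4 cells (-0.58 ± 0.15, adjusted p = 0.00503). Socs3, a feedback inhibitor that STAT3 induces, stood at 2.74 CPM in CD8 cells and 2.22 CPM in CD4 cells and was not called. Of 17 genes of IL-10 receptor and STAT3 signalling tested, 2 were higher and 8 lower, with a median of -0.29. The 2 higher genes were Il6st and Pim2. Il6st, the signal-transducing chain gp130 of the IL-6 receptor, stood at 416, 420 and 413 CPM in the CD8 libraries and at 132, 192 and 158 CPM in the CD4 libraries (1.38 ± 0.16, adjusted p = 1.55e-06). Pim2, a survival kinase, stood at 380, 381 and 336 CPM in the CD8 libraries and at 103, 94.7 and 96.7 CPM in the CD4 libraries (1.90 ± 0.12, adjusted p = 5.94e-10). Ctsw, Btg1, Btg2, Klrb1f, Cd226, Slamf6 and Tnfsf8 were named after their values were seen.

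**Figure D3:**
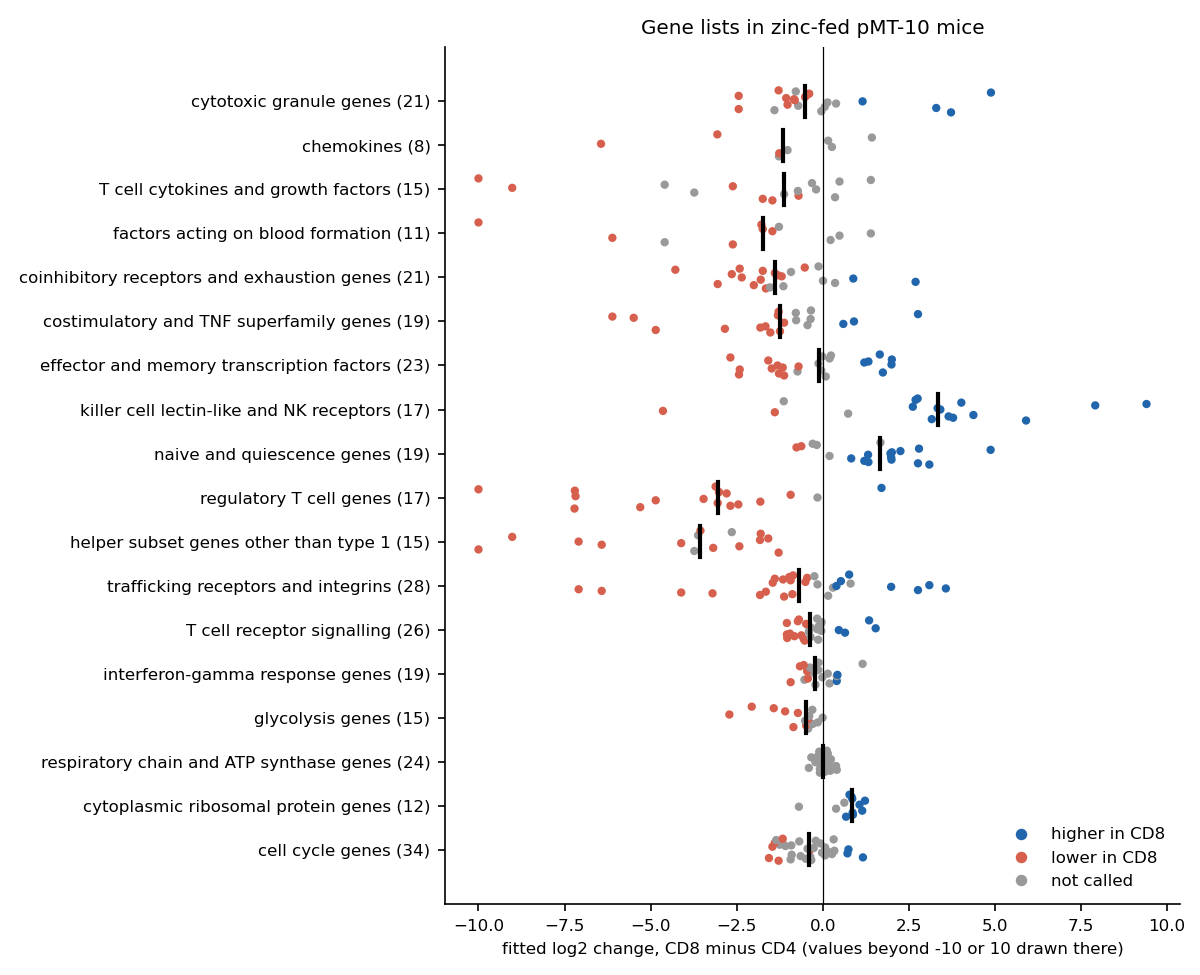
Fitted log2 fold change of CD8 over CD4 (x axis) for the tested members of 18 gene lists in zinc-fed pMT-10 mice, 1 point a gene, blue where called higher in CD8 cells, red where called lower and grey otherwise, with the median as a bar and the number tested in brackets. The naive (13 of 19 higher) and killer receptor (13 of 17 higher) lists lie mostly to the right, and the regulatory (15 of 17 lower) and helper (12 of 15 lower) lists mostly to the left.

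Genes outside the lists were named by size of difference. Adgrg5, an adhesion G-protein-coupled receptor, stood at 210, 201 and 199 CPM in the CD8 libraries and at 3.26, 2.39 and 3.15 CPM in the CD4 libraries (log2 6.10 ± 0.26, adjusted p = 1e-12). Eng, which encodes the TGF-beta coreceptor endoglin, and Fcgrt, the neonatal Fc receptor, were higher in CD8 cells by 5.86 ± 0.68 and 4.86 ± 0.29. On the other side, Gcg, the gene of preproglucagon, had no count in CD8 libraries and stood at 21.1, 43.1 and 43.7 CPM in the CD4 libraries, at least 418-fold lower in CD8 cells. Cybb, a subunit of the phagocyte oxidase, was likewise at 0 in CD8 libraries and stood at 14.8, 21.6 and 16.9 CPM in CD4 libraries, at least 209-fold lower. Sdc4, a heparan sulphate proteoglycan, stood at 0, 1.32 and 0.0732 CPM in CD8 libraries and at 85.6, 129 and 87.7 CPM in CD4 libraries (-7.87 ± 0.60, adjusted p = 3.72e-08). Most of its CD8 counts came from CD8 replicate 2, and the ratio of CD4 to CD8 means, 218, was 2760 without it.

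Markers of other cells that marrow sorts can carry were read in the same libraries. The 14 monocyte and macrophage markers summed to 34.6 to 51.7 CPM in CD8 libraries and 184 to 225 CPM in CD4 libraries, led by Ccr2, which T cells also express, and with Lyz1, Cd14 and C1qa at 0 in both. The 15 neutrophil markers summed to 2.73 to 25.8 CPM in CD8 libraries and 37.8 to 107 CPM in CD4 libraries, led by Mmp9, with Mmp8, Cxcr2 and Csf3r at 0 in both. The 11 B cell markers summed to 27.6 to 45.9 CPM in CD8 libraries and 6.98 to 23.3 CPM in CD4 libraries, with Ms4a1 and Pax5 at 0 in both. The 10 platelet markers summed to 12.5 to 16.9 CPM in CD8 libraries and 23.9 to 198 CPM in CD4 libraries, the highest in CD4 replicate 3. Summed NK markers, which share Nkg7 and other genes with killer T cells, ran from 787 to 1420 CPM in CD8 libraries and from 1420 to 2330 CPM in CD4 libraries. The 15 dendritic cell markers summed to 337 to 363 CPM in CD8 libraries and 542 to 943 CPM in CD4 libraries, led by Cd74, with Xcr1 and Clec9a at 0 in both. The 9 plasma cell markers summed to 189 to 234 CPM in CD8 libraries and 474 to 544 CPM in CD4 libraries, with Mzb1 at 0 in both. The 10 stroma and endothelium markers summed to 226 to 307 CPM in CD8 libraries and 49.8 to 145 CPM in CD4 libraries, with Col1a1, Cdh5 and Emcn at 0 in both. Only 1 of these 10 passed the filter on low counts, and 7 had no count in CD8 libraries, so this sum rests on few genes. The 9 erythroid markers summed to 51.2 to 54.5 CPM in CD8 libraries and 33.0 to 45.1 CPM in CD4 libraries. Apart from the NK sums, which met near 1420 CPM, none of the sums above overlapped between the cell types. Those of the stem and progenitor (523 to 625 CPM in CD8 and 200 to 541 CPM in CD4 libraries), gamma-delta and mast cell lists overlapped. In the monocyte, neutrophil, dendritic, plasma and B cell lists some members were read in 1 cell type alone. Adgre1, Fcgr1 and Cd163 (monocyte) and Siglech, Batf3 and Cd209a (dendritic) were read in CD4 libraries alone. So were Ngp (neutrophil), Sdc1 and Tnfrsf17 (plasma), and Ebf1 and Fcmr (B cell). Read in CD8 libraries alone were Mpo and Ctsg (neutrophil), Flt3 (dendritic), Jchain (plasma) and Vpreb3 (B cell). The part of other cells in the differences above was not tested beyond these values.

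The same comparison in the other mice showed which of these differences the zinc-fed pMT-10 mice held in common with them. CD8 and CD4 cells differed in 2511 genes (22.2%) in zinc-fed C57BL/6 mice and in 2458 genes (21.7%) in pMT-10 mice without zinc, and by at least 2-fold in 1407 (12.4%) and 1371 (12.1%). Of the 1512 genes higher in CD8 cells of pMT-10 mice on zinc, 583 were also higher in zinc-fed C57BL/6 mice (38.6% of that list and 55.5% of the C57BL/6 list of 1050, itself 9.28% of the genes tested) and 596 in pMT-10 mice without zinc (39.4% and 58.9% of 1012, or 8.94% of the genes tested). Of the 1666 lower genes, 814 were also lower in zinc-fed C57BL/6 mice (48.9%, and 55.7% of 1461, or 12.9% of the genes tested) and 870 in pMT-10 mice without zinc (52.2%, and 60.2% of 1446, or 12.8% of the genes tested). These 3 comparisons share no library. Genes called higher in CD8 cells of all 3 kinds of mice numbered 461 (4.07% of those tested), and genes called lower 725 (6.41%).

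A test of the difference itself, the CD8 over CD4 contrast of zinc-fed pMT-10 mice minus that of the other mice, was called for 621 genes against zinc-fed C57BL/6 mice (5.49%) and for 428 genes against pMT-10 mice without zinc (3.78%). In the first, 386 (3.41%) were shifted towards CD8 cells and 235 (2.08%) towards CD4 cells, and in the second 276 (2.44%) and 152 (1.34%). Counts of shifted list members given below are to be read beside these shares. These differences share the zinc-fed pMT-10 libraries, so they are not independent of each other. Counts moved widely with single libraries, between 255 and 837 against zinc-fed C57BL/6 mice and between 133 and 693 against pMT-10 mice without zinc, the lowest without CD4 replicate 1 and the highest without CD4 replicate 2 of the zinc-fed pMT-10 mice. The median over all genes was 0.047 in both. Without scaling beyond library size the medians were 0.206 and 0.223, and the splits were 648 towards CD8 and 120 towards CD4 cells in the first and 537 and 76 in the second.

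**Figure D4:**
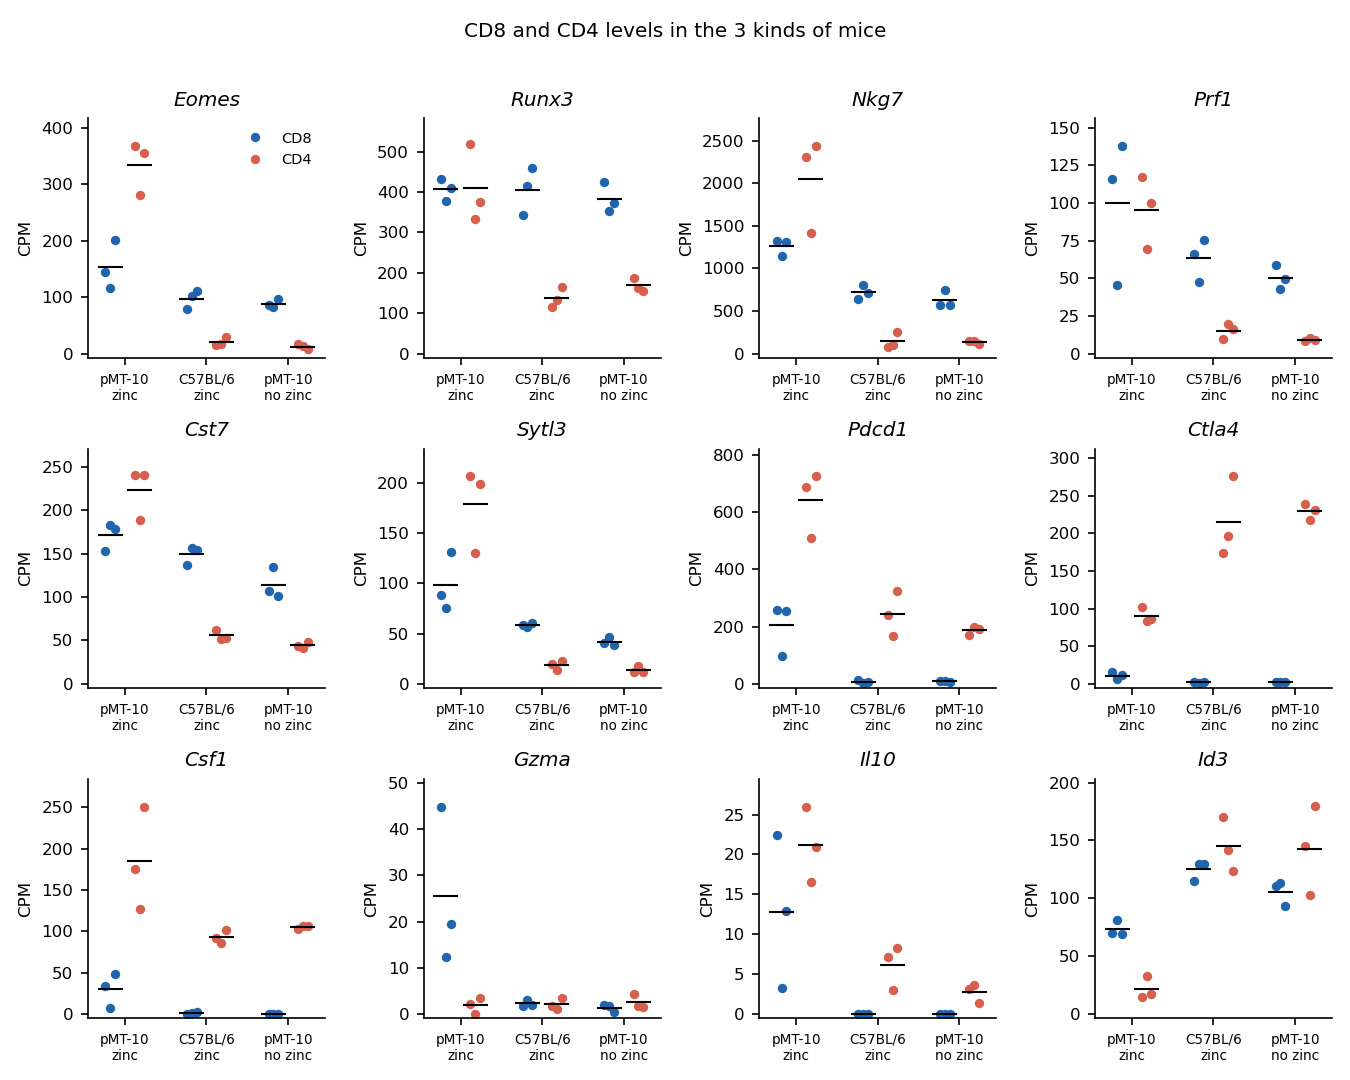
Level of 12 genes in CPM (y axis, linear, a scale for each gene) in CD8 (blue) and CD4 (red) libraries of zinc-fed pMT-10, zinc-fed C57BL/6 and pMT-10 mice without zinc, 1 point a library with the mean as a line. Eomes lies lower in CD8 than in CD4 libraries of zinc-fed pMT-10 mice, and higher in CD8 than in CD4 libraries of both other kinds of mice.

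Eomes reversed between the mice. It averaged 154 ± 43.7 CPM in CD8 cells and 335 ± 46.9 CPM in CD4 cells of zinc-fed pMT-10 mice, 97.3 ± 16.5 and 20.2 ± 8.33 CPM in CD8 and CD4 cells of zinc-fed C57BL/6 mice, and 88.6 ± 7.08 and 12.3 ± 4.56 CPM in CD8 and CD4 cells of pMT-10 mice without zinc (SD, n = 3 each). The CD8 over CD4 difference was thus -1.12 in zinc-fed pMT-10 mice, against 2.27 in zinc-fed C57BL/6 mice and 2.85 in pMT-10 mice without zinc, and every one was called. The shift was -3.39 ± 0.38 against zinc-fed C57BL/6 mice (adjusted p = 5.36e-05) and -3.97 ± 0.38 against pMT-10 mice without zinc (adjusted p = 1.93e-05). Group means thus spanned 88.6 to 154 CPM in CD8 cells and 12.3 to 335 CPM in CD4 cells.

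In all, 7 genes (0.0619% of those tested) were called lower in CD8 cells of pMT-10 mice on zinc and higher in those of both other kinds of mice, namely Eomes, Sytl3, Cst7, Itgae, Btbd11, St3gal3 and Tpst2. Sytl3 averaged 97.9 ± 29.1 CPM in CD8 and 179 ± 42.3 CPM in CD4 cells of zinc-fed pMT-10 mice, 58.7 ± 1.92 and 18.5 ± 4.48 CPM in those of zinc-fed C57BL/6 mice, and 41.8 ± 4.02 and 13.5 ± 3.22 CPM in those of pMT-10 mice without zinc. Itgae, the CD103 integrin chain of tissue-resident cells, averaged 51.2 and 97.2 CPM in CD8 and CD4 cells of zinc-fed pMT-10 mice, 93.6 and 67.0 CPM in those of zinc-fed C57BL/6 mice, and 112 and 59.2 CPM in those of pMT-10 mice without zinc. Another 7 genes (0.0619%) were called higher in CD8 cells of pMT-10 mice on zinc and lower in both others, namely Gpr15, Gbp4, Nfkbiz, Acer2, Adamts6, Gm10130 and Trio. Gpr15, a homing receptor for the gut, averaged 8.48 and 2.58 CPM in CD8 and CD4 cells of zinc-fed pMT-10 mice, 15.4 and 32.6 CPM in those of zinc-fed C57BL/6 mice, and 15 and 35.7 CPM in those of pMT-10 mice without zinc. Both groups of 7 were picked after their values were seen. Under other scalings, other tests and without single libraries of the zinc-fed pMT-10 mice the groups held 3 to 12 and 4 to 14 genes. These counts include genes not named here, and as few as 3 of the 7 named genes stayed in each group. Cst7, St3gal3 and Tpst2 left the first group on library size alone and in most of the fits without a single library. In each of these settings Eomes and Sytl3 stayed in the first group and Nfkbiz and Gpr15 in the second, but libraries of the other mice were not left out here.

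Granule genes shifted both ways. Of the 21 tested, 3 (Gzma, Gzmb and Plac8) shifted towards CD8 cells and 4 (Prf1, Nkg7, Cst7 and Ctsw) towards CD4 cells against zinc-fed C57BL/6 mice, and 2 (Gzma and Plac8) and 3 (Prf1, Nkg7 and Cst7) against pMT-10 mice without zinc. Nkg7 averaged 1260 ± 94.2 CPM in CD8 and 2050 ± 556 CPM in CD4 cells of zinc-fed pMT-10 mice, 718 ± 87.1 and 146 ± 98.0 CPM in those of zinc-fed C57BL/6 mice, and 630 ± 99.5 and 133 ± 18.4 CPM in those of pMT-10 mice without zinc. Its shift was -3.01 ± 0.46 against zinc-fed C57BL/6 mice (adjusted p = 0.0013), or -3.70 without C57BL/6 CD4 replicate 3, and -2.95 ± 0.46 against pMT-10 mice without zinc (adjusted p = 0.00178). Runx3 averaged 406 ± 26.8 CPM in CD8 and 409 ± 97.7 CPM in CD4 cells of zinc-fed pMT-10 mice, 406 ± 58.1 and 138 ± 25.1 CPM in those of zinc-fed C57BL/6 mice, and 383 ± 37.0 and 169 ± 17.0 CPM in those of pMT-10 mice without zinc. For Runx3 the CD8 means were close in the 3 kinds of mice, and the shift of -1.57 ± 0.23 (adjusted p = 0.000673) against C57BL/6 mice stood beside CD4 means that were highest in zinc-fed pMT-10 mice. Prf1 shifted by -1.99 ± 0.45 (adjusted p = 0.0133) against zinc-fed C57BL/6 mice, where it averaged 63.1 CPM in CD8 and 15.3 CPM in CD4 cells. That call was lost when only these 4 groups were fitted (adjusted p = 0.0524). Crtam, a receptor of cytotoxic CD4 and CD8 cells, remained higher in CD8 cells of pMT-10 mice on zinc, at 74.3 CPM in CD8 and 32.8 CPM in CD4 cells, against 87.0 and 7.38 CPM in CD8 and CD4 cells of zinc-fed C57BL/6 mice (shift -2.38 ± 0.25, adjusted p = 5.36e-05).

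Gzmb, Gzmk and Ifng followed another pattern, and each was called lower in CD8 than in CD4 cells of zinc-fed C57BL/6 mice. Ifng averaged 240 ± 100 CPM in CD8 and 662 ± 178 CPM in CD4 cells of zinc-fed pMT-10 mice, 11.2 ± 6.78 and 49.6 ± 24.1 CPM in those of zinc-fed C57BL/6 mice, and 8.95 ± 4.08 and 37.0 ± 7.26 CPM in those of pMT-10 mice without zinc. The difference between the cell types was called in all 3 kinds of mice, and its shift was not (0.68 ± 0.60, adjusted p = 0.558, and 0.57 ± 0.60, adjusted p = 0.67). Gzmb averaged 1560 ± 571 CPM in CD8 and 1600 ± 253 CPM in CD4 cells of zinc-fed pMT-10 mice, 19.5 ± 13.4 and 99.3 ± 56.1 CPM in those of zinc-fed C57BL/6 mice, and 11 ± 1.91 and 39.2 ± 9.21 CPM in those of pMT-10 mice without zinc. Its shift towards CD8 cells was called against zinc-fed C57BL/6 mice (2.29 ± 0.63, adjusted p = 0.0443) and not against pMT-10 mice without zinc (1.80 ± 0.63, adjusted p = 0.133), and the first call was lost in 10 of 20 settings, among them a fit of the 4 groups alone (0.111). Gzmk shifted by 0.10 ± 0.85 and -1.51 ± 0.87, neither called.

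The checkpoint receptors Pdcd1, Tigit and Ctla4 were lower in CD8 than in CD4 cells in every kind of mouse, but by less in zinc-fed pMT-10 mice. Pdcd1 averaged 204 ± 91.3 CPM in CD8 and 641 ± 116 CPM in CD4 cells of zinc-fed pMT-10 mice, 7.62 ± 5.93 and 244 ± 77.9 CPM in those of zinc-fed C57BL/6 mice, and 8.74 ± 2.99 and 187 ± 14.5 CPM in those of pMT-10 mice without zinc. Its shift was 3.34 ± 0.63 (adjusted p = 0.00696) against zinc-fed C57BL/6 mice, or 4.12 without C57BL/6 CD8 replicate 1, and 2.79 ± 0.62 (adjusted p = 0.022) against pMT-10 mice without zinc. Tigit averaged 38.4 ± 17.1 CPM in CD8 and 154 ± 14.4 CPM in CD4 cells of zinc-fed pMT-10 mice, 1.98 ± 0.50 and 82.3 ± 33.5 CPM in those of zinc-fed C57BL/6 mice, and 1.30 ± 0.481 and 54.1 ± 3.97 CPM in those of pMT-10 mice without zinc. Ctla4 differed in that its CD4 mean was lower in zinc-fed pMT-10 mice, at 10.9 ± 4.45 CPM in CD8 and 90.3 ± 10.3 CPM in CD4 cells, against 2.07 ± 1.23 and 215 ± 53.7 CPM in CD8 and CD4 cells of zinc-fed C57BL/6 mice (shift 3.60 ± 0.43, adjusted p = 0.000107). Of the 21 coinhibitory genes, 10 shifted towards CD8 cells and none towards CD4 cells against zinc-fed C57BL/6 mice, and 9 and none against pMT-10 mice without zinc. Without single libraries these counts were 8 to 10, and 5 to 9, the 5 without CD4 replicate 1. Csf1 averaged 30.1 ± 20.7 CPM in CD8 and 185 ± 62.7 CPM in CD4 cells of zinc-fed pMT-10 mice, 1.26 ± 0.957 and 93.2 ± 8.01 CPM in those of zinc-fed C57BL/6 mice, and 0.153 ± 0.265 and 105 ± 2.02 CPM in those of pMT-10 mice without zinc. Its shift of 3.51 ± 0.79 against zinc-fed C57BL/6 mice (adjusted p = 0.0183) was 4.39 without C57BL/6 CD8 replicate 3, and its call was lost without C57BL/6 CD8 replicate 2 or zinc-fed pMT-10 CD4 replicate 1.

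**Figure D5:**
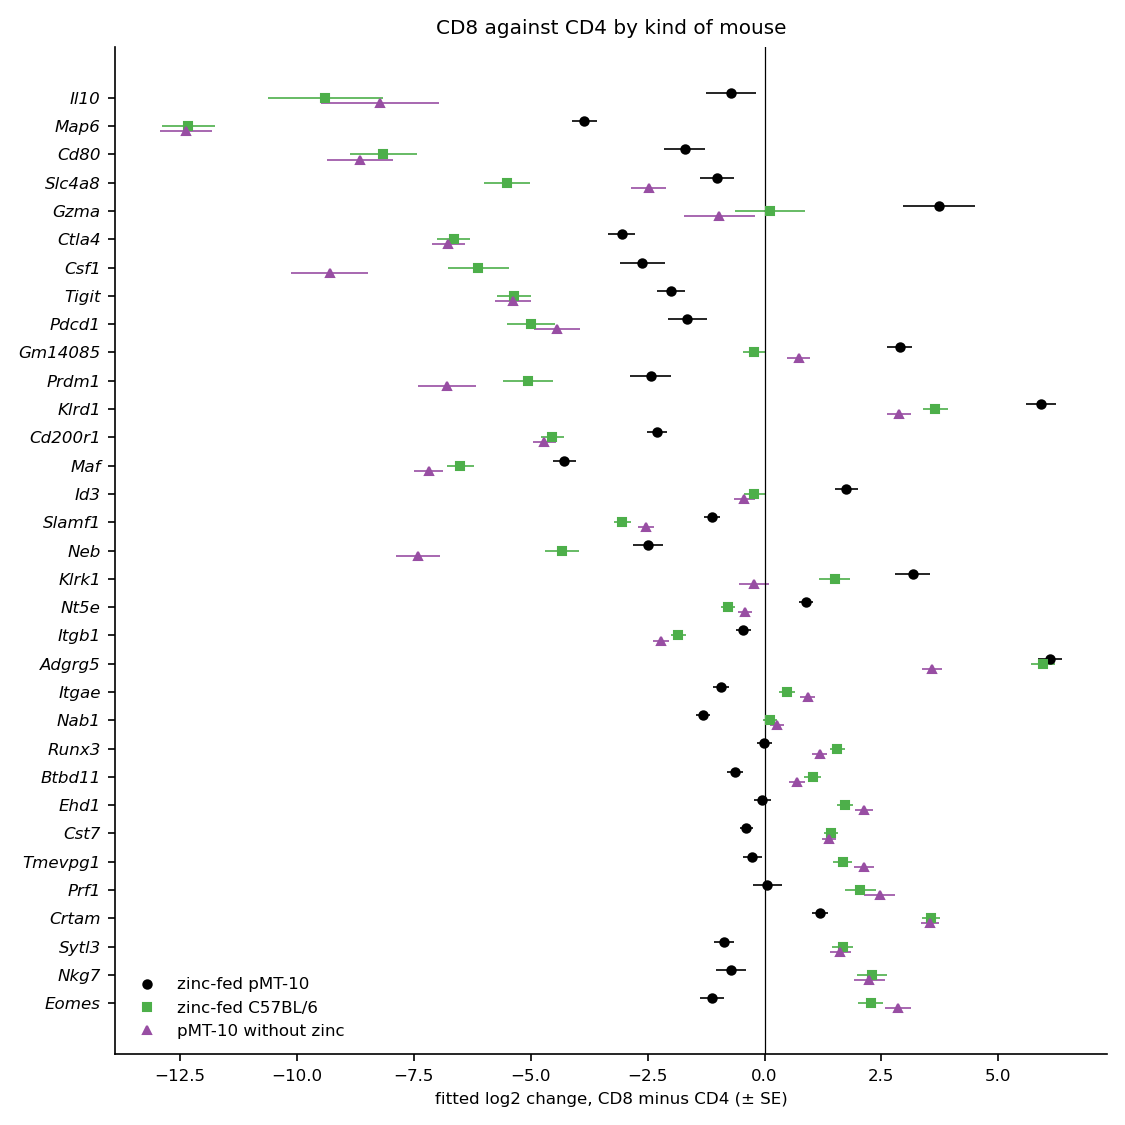
Fitted log2 fold change of CD8 over CD4 with standard errors (x axis) in zinc-fed pMT-10 (circles), zinc-fed C57BL/6 (squares) and pMT-10 mice without zinc (triangles) for 33 genes whose difference between mice was called. Eomes, Sytl3 and Cst7 lie below 0 in zinc-fed pMT-10 mice and above 0 in both other kinds of mice. For Cst7 these signs were not called in every setting tried. Pdcd1, Tigit and Ctla4 lie below 0 in all 3 kinds of mice and nearest to 0 in zinc-fed pMT-10 mice.

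Some naive genes were more CD8-biased in zinc-fed pMT-10 than in zinc-fed C57BL/6 mice. Of the 19 naive genes, 6 shifted towards CD8 cells against zinc-fed C57BL/6 mice, a count that ran from 1 without CD4 replicate 1 to 12 without CD4 replicate 2. Against pMT-10 mice without zinc 2 shifted towards CD8 cells (Klf2 and Satb1) and 1, Btg1, towards CD4 cells. Klf2 was named after its values were seen. Id3 averaged 73.3 ± 6.86 CPM in CD8 and 21.8 ± 9.78 CPM in CD4 cells of zinc-fed pMT-10 mice, 125 ± 8.79 and 146 ± 23.2 CPM in those of zinc-fed C57BL/6 mice, and 106 ± 10.8 and 143 ± 38.5 CPM in those of pMT-10 mice without zinc, and shifted by 1.98 ± 0.32 and 2.19 ± 0.32. Klrd1 averaged 46.0 ± 4.90 CPM in CD8 and 0.765 ± 0.228 CPM in CD4 cells of zinc-fed pMT-10 mice, against 51.3 ± 13.8 and 4.06 ± 1.64 CPM in CD8 and CD4 cells of zinc-fed C57BL/6 mice. Of the 17 killer receptor genes, 4 shifted towards CD8 cells and none towards CD4 cells against zinc-fed C57BL/6 mice, and 8 and none against pMT-10 mice without zinc. Genes of T cell receptor signalling went the other way, with 1 of 26, Dgka, shifted towards CD8 and 6 towards CD4 cells against each kind of mouse. The 6 fell to 2 against each when CD4 replicate 1 was left out. Lat, the scaffold below the T cell receptor, averaged 575 ± 76.6 CPM in CD8 and 1180 ± 279 CPM in CD4 cells of zinc-fed pMT-10 mice and 563 ± 71.8 and 572 ± 118 CPM in those of zinc-fed C57BL/6 mice (shift -1.01 ± 0.24, adjusted p = 0.0153).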

How the data were processed

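RNA of sorted marrow CD8 and CD4 T cells was read with the Ion AmpliSeq Transcriptome mouse panel. The authors deposited whole-number read counts for 1 amplicon per gene, and the genome build is mm10, per the submitters' processing notes. The sources used here give no aligner or counter, nor how reads shared by near-identical genes were treated. Libraries were grouped by their titles, 3 to each of 6 groups, with total counts from 10546798 to 18519474. The counts were fitted with edgeR 4.0.16 in R 4.3.3, with TMM scaling, its filter on low counts, which left 11316 of 23930 genes, and robust quasi-likelihood F tests on the 6 group means, leaving 12 residual degrees of freedom. P-values were adjusted by the Benjamini-Hochberg method over all genes tested. Standard errors are the log2 fold change over the square root of F. Where a group had no count, its bound was set at 3 counts over the group. Bounds cover counting error only.

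Named genes are the 15 with the largest change each way among those with at least 10 CPM in the higher group and no overlap, a fixed core of T cell genes, the 8 with the smallest adjusted p each way in each difference between mice, and up to 4 members of each gene list with at least 1 CPM in the higher group. The comparison, the core genes and the gene lists were chosen with earlier results of these data known. Median-ratio size factors, library size alone, DESeq2 1.42.0, limma-voom (limma 3.58.1), other low count filters, non-robust fits, fits of the compared groups alone, a 2-fold minimum and leaving out each library were tried. The settings for gene lists and for genes of opposite sign between mice were added after seeing the data. The scripts were tested on simulated data of 11046 genes: in the comparison of zinc-fed pMT-10 mice 100% of 4-fold and 44% of 2-fold changes were recovered, with 10 of 154 calls on unchanged genes, and in the difference from zinc-fed C57BL/6 mice 81% of 4-fold and 12% of 2-fold changes. Only 100 genes were changed at each size, far fewer than the calls in the data. The changed genes were drawn only from well-read genes, and all genes were simulated with the same dispersion. These shares therefore need not hold for the data, or for genes with few counts. A few genes are not reported here.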

Additional observations from a re-analysis of the deposited data

Results flagged for a closer look

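The genes given here were picked out because a test found that their CD8 over CD4 difference was not the same in zinc-fed pMT-10 mice as in another kind of mouse. Each value is the shift, the log2 difference of zinc-fed pMT-10 mice minus that of zinc-fed C57BL/6 mice unless pMT-10 mice without zinc are named. No explanation was tested.

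Shifts towards CD4 cells were -3.39 for Eomes, -3.01 for Nkg7, -2.53 for Sytl3, -2.38 for Crtam, -1.99 for Prf1, -1.81 for Cst7, -1.57 for Runx3, -1.41 for Itgae and -1.67 for Btbd11, whose values or directions are described above. Tmevpg1, a non-coding RNA gene beside Ifng, shifted by -1.93 and averaged 85.2 and 102 CPM in CD8 and CD4 cells of zinc-fed pMT-10 mice, against 42.4 and 13.3 CPM in those of zinc-fed C57BL/6 mice. Ehd1, an endosomal recycling protein, shifted by -1.77 and averaged 132 and 136 CPM in CD8 and CD4 cells of zinc-fed pMT-10 mice, against 166 and 50.4 CPM in those of zinc-fed C57BL/6 mice. Nab1, a corepressor of EGR factors, shifted by -1.43, with 286 and 710 CPM in CD8 and CD4 cells of zinc-fed pMT-10 mice and 179 and 165 CPM in those of zinc-fed C57BL/6 mice. In Tmevpg1 and Ehd1 the CD4 mean was the one that lay further apart between the mice.

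Shifts towards CD8 cells of genes described above were 3.34 for Pdcd1, 3.36 for Tigit, 3.60 for Ctla4, 3.51 for Csf1, 3.62 for Gzma, 1.98 for Id3, 2.26 for Klrd1, 1.67 for Klrk1, 2.63 for Prdm1, 2.23 for Maf and, against pMT-10 mice without zinc, 2.52 for Adgrg5. Maf averaged 16.2 and 317 CPM in CD8 and CD4 cells of zinc-fed pMT-10 mice and 2.93 and 276 CPM in those of zinc-fed C57BL/6 mice. Itgb1, the beta-1 integrin chain, shifted by 1.39, with 124 and 170 CPM in CD8 and CD4 cells of zinc-fed pMT-10 mice and 112 and 400 CPM in those of zinc-fed C57BL/6 mice. Nt5e, the ectoenzyme CD73, shifted by 1.67, with 87.3 and 47.2 CPM in CD8 and CD4 cells of zinc-fed pMT-10 mice and 83.3 and 143 CPM in those of zinc-fed C57BL/6 mice. Gm14085 shifted by 3.11, with 96.1 and 13.1 CPM in CD8 and CD4 cells of zinc-fed pMT-10 mice and 91.4 and 106 CPM in those of zinc-fed C57BL/6 mice. In Itgb1, Nt5e and Gm14085 the CD8 means of the mice were close and the CD4 means were not.

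In other genes the CD8 mean was the lower one in zinc-fed C57BL/6 mice. Cd80, a ligand of CD28 and CTLA-4, shifted by 6.44, with 1.35 and 4.45 CPM in CD8 and CD4 cells of zinc-fed pMT-10 mice and 0.0223 and 10.1 CPM in those of zinc-fed C57BL/6 mice. Cd200r1, an inhibitory receptor, shifted by 2.24, with 13.5 and 66.5 CPM in CD8 and CD4 cells of zinc-fed pMT-10 mice and 3.02 and 70.1 CPM in those of zinc-fed C57BL/6 mice. Slc4a8, a bicarbonate transporter, shifted by 4.47, Neb, the gene of nebulin, by 1.83, and Slamf1, a costimulatory receptor, by 1.92. Il10 shifted by 8.68 and Map6 by 8.47, but CD8 cells of zinc-fed C57BL/6 mice had no count of either, so these fitted sizes depend on the prior count and are no bounds.

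Some of these calls were lost in other settings, namely those of Csf1 (highest adjusted p = 0.0754), Gzma (0.143), Klrk1 (0.174), Prdm1 (0.131), Neb (0.0843), Klrd1 (0.0694), Il10 (0.0609) and Prf1 (0.0524). Besides the shifts given above with and without a library, the fitted fold moved by over 1.5 times on leaving out 1 library for Cd80 (8.39 without C57BL/6 CD8 replicate 3), Gzma (2.94 without zinc-fed pMT-10 CD8 replicate 1 and 4.28 without CD4 replicate 3), Il10 (8.02 when CD8 replicate 1 of zinc-fed pMT-10 mice was left out) and Slc4a8 (5.19 without C57BL/6 CD8 replicate 2 and 3.79 without C57BL/6 CD8 replicate 3).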

How the results depend on the processing

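The 2-fold minimum was applied to total counts only, and the counts of named genes here are over the other settings. In zinc-fed pMT-10 mice 144 of the 172 named genes that were called stayed so in every one of these settings, and 22 of 32 uncalled ones stayed uncalled. Against zinc-fed C57BL/6 mice 36 of 67 called shifts stayed so, and 34 of 56 against pMT-10 mice without zinc. With a 2-fold minimum as well, 1595 genes were called in zinc-fed pMT-10, 1407 in zinc-fed C57BL/6 and 1371 in pMT-10 mice without zinc. Called shifts against zinc-fed C57BL/6 mice numbered 1031 with DESeq2, 1055 without a low count filter and 410 in a fit of the 4 groups alone, and against pMT-10 mice without zinc 820 with DESeq2 and 847 without a filter. On leaving out 1 library, calls ranged from 2238 to 3008 in zinc-fed pMT-10, 1935 to 2203 in zinc-fed C57BL/6 and 1805 to 2029 in pMT-10 mice without zinc, and called shifts from 255 to 837 and from 133 to 693. On library size alone the split of higher and lower genes was 844 and 1636 in zinc-fed C57BL/6 mice and 750 and 1673 in pMT-10 mice without zinc. The fitted sign turned only in named genes that were not called, but the called platelet gene Ppbp went to -0.05 without CD4 replicate 3, against -6.79 with it, and its ratio of CD4 to CD8 means, 114, was then 0.98. On leaving out single libraries the uncalled genes ran from -0.75 to 0.01 for Cd68, -0.21 to 0.04 for Ehd1, -0.26 to 0.25 for Gzmb, -1.46 to 2.65 for Itga2b, -1.86 to 0.67 for Lyz2, -0.25 to 0.42 for Prf1, -2.86 to 2.75 for Prtn3, -0.14 to 0.18 for Runx3 and -0.19 to 0.66 for Xcl1. On library size alone Ehd1 was 0.04, Gzmb 0.06 and Runx3 0.08, with limma-voom Itga2b was 1.22, Prf1 -0.04, Prtn3 -0.30 and Runx3 0.01, and in a fit of the groups alone Runx3 was 0.00. The cause was not tested. No paired analysis was possible because the labels give no replicate number shared by CD8 and CD4 libraries and do not tie CD8 to CD4 libraries of 1 mouse. In the simulated data, with 3 libraries a group, 2-fold changes were often missed. Between the mice, strain goes with sex and zinc with chip.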

Other observations

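Ribosomal protein genes were mostly higher, and 8 of 15 glycolysis genes lower, in CD8 cells, while no respiratory chain gene was called in zinc-fed pMT-10 mice. Of 12 cytoplasmic ribosomal protein genes tested, 9 were higher and none lower in CD8 cells of each of the 3 kinds of mice, with medians of 0.85 in zinc-fed pMT-10, 0.98 in zinc-fed C57BL/6 and 0.94 in pMT-10 mice without zinc. Rpl32 stood at 1800, 2160 and 1830 CPM in the CD8 libraries of zinc-fed pMT-10 mice and at 830, 785 and 995 CPM in the CD4 libraries (1.15 ± 0.16, adjusted p = 2.27e-05). Ribosomal protein genes have near-identical pseudogenes, so single values are uncertain. Of 15 glycolysis genes none was higher and 8 were lower in CD8 cells of pMT-10 mice on zinc, with a median of -0.48, a count of 6 to 8 without single libraries. Pkm, the pyruvate kinase of the last step of glycolysis, stood at 632, 659 and 834 CPM in the CD8 libraries and at 1520, 1470 and 1530 CPM in the CD4 libraries (-1.09 ± 0.12, adjusted p = 5.76e-07), and it shifted by -0.68 (adjusted p = 0.0184) against zinc-fed C57BL/6 mice. Of 24 genes of the respiratory chain and ATP synthase none was called in zinc-fed pMT-10 mice by edgeR, while 6 were higher in CD8 cells of C57BL/6 mice on zinc and 10 in those of pMT-10 mice without zinc. The difference between the mice itself was called for 1 of the 24 in each case. Over all genes tested it was called for 5.49% against zinc-fed C57BL/6 mice and 3.78% against pMT-10 mice without zinc.

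Of 29 type I interferon-stimulated genes 5 were higher and 5 lower in CD8 cells, against 1 and 7 in zinc-fed C57BL/6 mice and none and 11 in pMT-10 mice without zinc, beside 13.4% higher and 14.7% lower over all genes in zinc-fed pMT-10 mice. The difference between the mice itself was called for 1 of the 29, Oasl2, against zinc-fed C57BL/6 mice and for 2, Oasl2 and Oas3, against pMT-10 mice without zinc, each towards CD8 cells. Over all genes tested such a difference was called for 5.49% and 3.78%. Oas3 was named after its values were seen. Oasl2, an antiviral gene, stood at 29.7, 37.1 and 22.4 CPM in the CD8 libraries and at 8.42, 16.8 and 5.92 CPM in the CD4 libraries of zinc-fed pMT-10 mice, without overlap (1.52 ± 0.38, adjusted p = 0.00468). Isg20, an RNA exonuclease, lay on the other side, at 27.9, 15.2 and 19.4 CPM in the CD8 libraries and 71.7, 71.1 and 65.6 CPM in the CD4 libraries (-1.74 ± 0.24, adjusted p = 1.32e-05). Of 19 interferon-gamma response genes 2 were higher and 5 lower, beside the same 13.4% and 14.7% over all genes. At most 1 of the 19 was higher without any 1 library. Among Ly6 and memory-activation antigens, 14 of 19 were lower in CD8 cells and 1 higher. Ly6a, the surface antigen Sca-1, stood at 657, 506 and 722 CPM in the CD8 libraries and at 2280, 1860 and 1840 CPM in the CD4 libraries (-1.66 ± 0.19, adjusted p = 1.12e-06). Of 28 trafficking receptors and integrins 7 were higher and 16 lower. Ccr2, a receptor for monocyte chemoattractants, stood at 15.3, 15.4 and 26.4 CPM in the CD8 libraries and at 184, 153 and 189 CPM in the CD4 libraries (-3.20 ± 0.32, adjusted p = 4.91e-07). Ccr9, a gut-homing receptor, stood at 29.9, 19.7 and 18.4 CPM in the CD8 libraries and at 0.849, 4.08 and 0.974 CPM in the CD4 libraries (3.58 ± 0.40, adjusted p = 1.44e-06), and its ratio of means, 11.5, was 24.8 without CD4 replicate 2.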
